A study of Mus musculus with 3 samples.

Results

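Enteroendocrine cells were selected in sc-RNAseq data of mouse colon organoids on the UMIs of 4 genes, the granins Chga and Chgb, the serotonin enzyme gene Tph1 and the transcription factor gene Neurod1. A UMI (unique molecular identifier) stands for 1 captured mRNA molecule. A cell was taken as a member when these genes summed to at least 3 UMIs and to at least 3 UMIs per 10000 of its UMIs. This rule found 50 cells among 4909 filtered cells, 22 in the untreated library, 12 after 24 h of IFN-γ and 16 after 48 h of IFN-γ. Every value of a member against other cells therefore comes from the cells and counts that chose it, and is given as a description.

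The organoids were derived from colon crypts of wild-type mice, and their cells were sorted with DAPI to remove dead cells. The untreated, 24 h and 48 h organoids all grew in full medium, which contains N-acetylcysteine, R-spondin 1, Wnt surrogate, noggin, EGF, A83-01, CHIR-99021, B-27 and N2, with Y-27632 after passaging, and they differ in the labels by IFN-γ alone. This medium favours stem and progenitor cells, organoids hold epithelium without nerves, blood supply, microbiota or stroma, and the study drew on young adult mice of either sex, without the sources used here saying which gave these organoids. Each condition is 1 library, so differences between conditions have no replicate check, no test was made, and both treated libraries are set against the same untreated library. All intervals are exact 95% intervals and cover counting error only.

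Enteroendocrine cells are rare hormone-secreting cells scattered through the gut lining. They sense nutrients, microbial products and stretch at the gut lumen, and release peptide hormones or serotonin from dense-core granules when calcium enters through voltage-gated channels. In the colon the main kinds are enterochromaffin cells, which make serotonin from tryptophan with the enzyme TPH1, and L cells, which make GLP-1 from proglucagon (Gcg), peptide YY (Pyy) and insulin-like peptide 5 (Insl5). Both arise from secretory progenitors that transiently express the transcription factor NEUROG3.

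Of the filtered cells, members made up 2.08% (1.31 to 3.13) of 1058 in the untreated library, 1.31% (0.678 to 2.27) of 917 at 24 h and 0.545% (0.312 to 0.884) of 2934 at 48 h. The libraries differed in the number and depth of the cells recovered, so these shares describe the libraries. Members held 436740, 351270 and 225196 UMIs in the 3 libraries, and the other cells 49365195, 70726547 and 47018304. Per library in the same order, a median member had 12522, 23512 and 10786 UMIs, against 34933, 69584 and 10772 in the median other cell. Thus members were shallower than the other cells in the untreated and 24 h libraries, and of like depth at 48 h. The deepest member supplied 20.4%, 19.8% and 18.4% of the members' UMIs.

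Among members, the summed marker level ran from 3.46 to 506 UMIs per 10000 in the untreated library, with a median of 62.9. It ran from 7.35 to 664 with a median of 130 at 24 h, and from 7.55 to 780 with a median of 79.5 at 48 h. At least 50 UMIs per 10000 were found in 12, 8 and 11 members, and fewer than 20 in 8, 2 and 5. The member just inside the rule had 4 marker UMIs of 11569 in the untreated library, 24 of 32639 at 24 h and 23 of 30449 at 48 h. The cell just outside it, ranked by marker UMIs per 10000, had 2 marker UMIs in each library, of 5224, 5841 and 5201. The 4 marker UMIs of the untreated member just inside the rule were all Chgb. An untreated cell that was not a member also held 4 Chgb UMIs. At 24 h a cell that was not a member held 15 Chga UMIs. The 2 members of that library with the lowest marker level held 5 and 1. Barcodes of under 2000 UMIs, taken as background, carried Chgb at 199, 76.3 and 13.6 UMIs per 1000000 in the untreated, 24 h and 48 h libraries. Chga stood there at 31.7, 20.6 and 6.85 and Tph1 at 3.16, 3.04 and 0.979. The part of background in the number of members was not tested. Members carried 94.8%, 98.1% and 96.3% of all marker UMIs of the filtered cells, and 28.9%, 12.3% and 4.49% of the other cells held at least 1 marker UMI. Filtered barcodes shared between libraries numbered 1 (untreated and 24 h), 4 (untreated and 48 h) and 1 (24 h and 48 h), and none of them was a member.

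**Figure D1:**
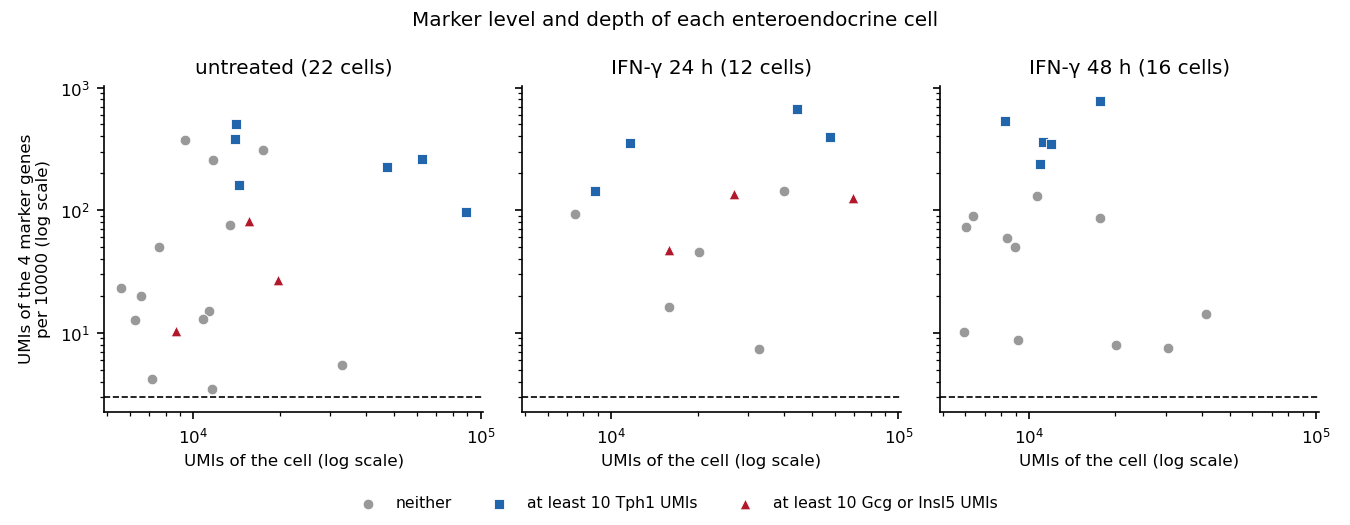
Marker level of each enteroendocrine cell (UMIs of Chga, Chgb, Tph1 and Neurod1 per 10000, log scale) against the UMIs of that cell (log scale), 1 panel a library, with the dashed line at the threshold of 3 per 10000. Squares mark the 15 cells with at least 10 Tph1 UMIs, triangles the 6 cells with at least 10 Gcg or Insl5 UMIs and circles the rest; no triangle appears at 48 h.

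Markers of other cell types were read in the members from lists of defining genes. Over the goblet cell list, members summed to 1335, 789 and 755 CPM (UMIs of a gene per 1000000 UMIs of the summed cells) in the untreated, 24 h and 48 h libraries, against 3090, 1016 and 717 in the other cells. Per cell the order was the other way, with medians of 705, 476 and 517 CPM in members against 350, 111 and 263 in other cells. Above that median of other cells lay 16, 12 and 12 members. In the untreated library 1 member held 402 of the members' 583 goblet UMIs. The most abundant goblet gene was the trefoil factor gene Tff3 (520, 584 and 524 CPM, with 187 of 227 untreated UMIs in 1 cell of 62590 UMIs), while the mucin gene Muc2 had 4, 0 and 0 UMIs and Clca1 had 0. Tuft cell genes summed to 0, 6 and 3 UMIs, or 0, 17.1 and 13.3 CPM against 3.04, 6.24 and 6.25 in other cells. Of the defining genes Dclk1 and Trpm5 were at 0, while all 3 UMIs at 48 h were Pou2f3. Of the tuft genes with enough UMIs to be compared, 2 of 3 at 24 h and 1 of 1 at 48 h were at least 2-fold higher in members. Immune genes summed to 2 UMIs in each library, with Ptprc and Cd3e at 0. Of 31, 7 and 13 stromal and endothelial UMIs, 30, 6 and 11 were Pecam1, and Col1a1, Pdgfra and Cdh5 were at 0. This list stood at 71.0, 19.9 and 57.7 CPM in members against 3.93, 1.71 and 2.83 in other cells. Of its genes with enough UMIs to be compared, 1 of 3, 2 of 2 and 2 of 2 were at least 2-fold higher in members. The neuron and glia list summed to 54, 178 and 95 UMIs, led by the neuronal tubulin gene Tubb3 (10, 129 and 78) and the RNA-binding protein gene Elavl4 (28, 17 and 11), with Uchl1, Hand2 and Sox10 at 0. Colonocyte genes reached 763, 404 and 338 CPM against 3071, 1298 and 1125 in the other cells, with Slc26a3 and Car4 at 0. Stem cell genes summed to 1156, 874 and 1052 CPM against 1134, 671 and 1038 in the other cells. The epithelial gene Epcam stood at 783, 1375 and 671 CPM in members. In CPM the neuron and glia list stood at 124, 507 and 422 in members against 3.81, 1.75 and 3.81 in other cells, and all of its 5, 4 and 3 genes with enough UMIs to be compared were at least 2-fold higher in members. Its part in the results was not tested. These counts of genes stand beside 30.3%, 26.3% and 18% of all genes compared that were at least 2-fold higher in members.

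Cell quality differed between members and other cells and between libraries. Ribosomal protein genes took 7.68%, 16.7% and 17.3% of the members' UMIs against 19.6%, 25.4% and 22.1% in the other cells. Mitochondrial genes took 7.60%, 2.64% and 4.51% against 4.39%, 2.18% and 4.77%. The nuclear RNA Malat1 stood at 50174, 22333 and 19516 CPM in members against 8939, 2939 and 4839 CPM in other cells. Untreated members thus had the least ribosomal and the most mitochondrial and Malat1 RNA, and the part of these differences in the results below was not tested.

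Granins are acidic proteins that drive the packing of hormones into dense-core granules, and the prohormone convertases and Cpe and Pam trim and amidate the hormones inside them. Chgb (chromosome 2, 132781278 to 132795079, GRCm38) had 5463 UMIs in 19 of 22 untreated members, 5165 in 12 of 12 at 24 h and 2269 in 14 of 16 at 48 h. Its level was 12509 CPM (12179 to 12845), 14704 CPM (14306 to 15110) and 10076 CPM (9665 to 10499), against 6.02, 1.26 and 1.60 CPM in other cells. Chga (chromosome 12, 102554969 to 102565028) was found in as many cells or more at lower levels, with 21, 12 and 16 members positive and 2095 CPM (1962 to 2235), 6075 CPM (5820 to 6338) and 4085 CPM (3826 to 4358). A few cells carried much of these sums, since 50% of the library's Chgb UMIs lay in 3, 2 and 2 cells and 50% of the Chga UMIs in 5, 2 and 3 cells. Without its highest cell, Chgb stood at 6519 CPM at 48 h.

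The other granin and processing genes were not part of the rule, although they were read in the same cells. A gene was compared where it had at least 10 UMIs over both sums, more than 3 in one of them and at least 1 CPM in one of them, and it was counted as higher or lower at a ratio of at least 2-fold, with no statistical test. Of the 10 genes of this list without Chga and Chgb, all 8 compared were higher in untreated members than in other cells, 9 of 9 at 24 h and 6 of 6 at 48 h. Over all genes compared, 30.3%, 26.3% and 18% were at least 2-fold higher in members and 14.1%, 13.7% and 8.53% lower, and since the rule used this contrast nothing is read from the counts. Secretogranin II (Scg2) stood at 341, 194 and 97.7 CPM in members against 0.466, 0.0566 and 0 CPM in other cells. The convertase gene Pcsk1 stood at 121, 245 and 187 CPM against 2.47, 0.269 and 0.617 CPM, while Pcsk2 had no UMI in members. Carboxypeptidase E (Cpe) reached 366, 239 and 204 CPM in members, and the amidating enzyme Pam, which other cells also expressed at 116, 73.1 and 106 CPM, reached 637, 268 and 284 CPM.

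Promoters of 4 of these genes are shown because each holds the core of the cAMP response element, TGACGT, which the CREB family of factors is known to bind in granin genes. Each line gives the 250 bases before the RefSeq start on the gene's own strand (GRCm38.p6, positions chr12:102554691-102554940 plus strand for Chga, chr2:132781392-132781641 plus strand for Chgb, chr1:79440027-79440276 minus strand for Scg2 and chr13:75089607-75089856 plus strand for Pcsk1), with capitals on the matches to TGACGT on either strand.
Chga: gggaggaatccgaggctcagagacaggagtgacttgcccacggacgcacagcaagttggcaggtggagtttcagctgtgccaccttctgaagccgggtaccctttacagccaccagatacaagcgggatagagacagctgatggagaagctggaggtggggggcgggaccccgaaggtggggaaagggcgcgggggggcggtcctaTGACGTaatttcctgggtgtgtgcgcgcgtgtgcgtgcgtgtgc
Chgb: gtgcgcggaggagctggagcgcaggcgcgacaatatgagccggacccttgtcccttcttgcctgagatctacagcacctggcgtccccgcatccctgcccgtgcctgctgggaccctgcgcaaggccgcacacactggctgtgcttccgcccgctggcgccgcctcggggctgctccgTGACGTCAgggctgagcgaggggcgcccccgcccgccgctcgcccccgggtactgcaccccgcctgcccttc
Scg2: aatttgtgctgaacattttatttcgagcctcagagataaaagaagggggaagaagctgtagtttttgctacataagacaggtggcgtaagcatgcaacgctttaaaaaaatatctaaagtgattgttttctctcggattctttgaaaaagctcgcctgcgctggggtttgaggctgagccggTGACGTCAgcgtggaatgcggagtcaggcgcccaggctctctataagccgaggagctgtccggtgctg
Pcsk1: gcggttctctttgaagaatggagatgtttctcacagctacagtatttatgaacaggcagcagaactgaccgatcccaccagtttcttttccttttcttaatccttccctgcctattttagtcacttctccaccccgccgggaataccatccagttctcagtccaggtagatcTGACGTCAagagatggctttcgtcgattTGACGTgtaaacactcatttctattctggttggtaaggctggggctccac
The match lies 44 to 39 bases before the start in Chga, and a palindrome matching on both strands lies 72 to 65 bases before it in Chgb and 68 to 61 in Scg2. Pcsk1 holds a palindrome at 78 to 71 and a single match at 50 to 45. Of the 12 granin and processing genes, 10 had a promoter in the RefSeq table and 5 of these held TGACGT (Chga, Chgb, Scg2, Scg5 and Pcsk1), against 6.47% of all 32851 promoters of the table. A gene was counted when any of its promoters matched, while the percentage is over single promoters, so the units differ. A match describes the letters only, and binding was not measured.

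Serotonin genes split the members. Tph1 (chromosome 7, 46644641 to 46672537), whose enzyme makes the rate-limiting step of serotonin synthesis, had 246 UMIs in 11 of 22 untreated members, 387 in 4 of 12 at 24 h and 272 in 5 of 16 at 48 h. Its level over all members was 563 CPM (495 to 638), 1102 CPM (995 to 1217) and 1208 CPM (1069 to 1360), against 0.101, 0.0566 and 0.191 CPM in other cells. With every cell thinned to 5000 UMIs, 9, 4 and 5 members and 0.193%, 0% and 0.103% of other cells held a Tph1 UMI, so the positive cells lay almost wholly among the members that Tph1 itself helped to choose. Single cells held 123 of the 246, 275 of the 387 and 162 of the 272 UMIs, and without them the levels were 316, 365 and 530 CPM. The second enzyme, Ddc, stood at 579, 350 and 195 CPM, and the granule monoamine transporter Slc18a1 at 488, 233 and 155 CPM against 8.57, 2.43 and 4.62 CPM in other cells. Tac1, which encodes substance P and marks one kind of enterochromaffin cell, stood at 266, 102 and 53.3 CPM, and 161 of its 164 UMIs in members lay in cells that also held Tph1. At 24 h 33 of its 36 UMIs lay in 1 member, and at 48 h 9 of its 12. In the list of serotonin genes, with Tph1 left out, 4 of 9 compared were higher and 2 lower in untreated members, 6 and 1 of 10 at 24 h, and 2 and 2 of 9 at 48 h. Among all genes compared, 30.3%, 26.3% and 18% were higher and 14.1%, 13.7% and 8.53% lower, and nothing is read from these counts.

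L cell hormones lay in few cells. Gcg (chromosome 2, 62474530 to 62483650) had 927 UMIs in 5 untreated members and 443 in 4 members at 24 h, or 2123 CPM (1988 to 2264) and 1261 CPM (1146 to 1384). At 48 h no member held Gcg, where 3 counts would be 13.3 CPM, and the library's filtered cells held 1 Gcg UMI. Insl5 (chromosome 4, 103017872 to 103026842) lay largely in the same cells, with 231 UMIs in 6 untreated members, 423 in 3 members at 24 h and 0 at 48 h. All 5 untreated and 3 of the 4 24 h members with Gcg also held Insl5, while 1 untreated member held 1 Insl5 UMI without Gcg and 1 member at 24 h held 39 Gcg UMIs without Insl5. Pyy (chromosome 11, 102106676 to 102107832) had 795 UMIs in 12 untreated members, 10052 in 2 members at 24 h and 2 in 1 member at 48 h. L cell hormones were thus read in the untreated and 24 h libraries and were at or under the floor at 48 h, in a library with 16 members.

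Most UMIs of each of these hormones lay in 1 or 2 cells of the untreated and 24 h libraries. One untreated member, with 15611 UMIs, held 589 Gcg and 445 Pyy UMIs, which is 55.9% of the library's Gcg UMIs and 39.7% of its Pyy UMIs. At 24 h one member of 69524 UMIs held 9538 of the library's 10165 Pyy UMIs, or 93.8%, and Pyy alone made up 13.7% of that cell's UMIs. The same cell held 298 of 463 Gcg UMIs. The number of cells that together held 50% of the library's UMIs was 1 and 1 for Gcg, 2 and 1 for Pyy and 2 and 1 for Insl5 in the untreated and 24 h libraries. For Tph1 it was 2, 1 and 1 cells in the untreated, 24 h and 48 h libraries. These numbers depend on the cells read, since with a minimum of 2000 UMIs 44 untreated cells held most of Pyy and 12 most of Insl5, and without the top cell 5 held most of the untreated Pyy. Without the highest Pyy cell of each library the members stood at 831 CPM in place of 1820 in the untreated library and at 1824 CPM in place of 28616 at 24 h. Gcg without its highest cell stood at 803 and 515 CPM, and Insl5 at 259 and 163 CPM in place of 529 and 1204. The log2 ratio of Insl5 at 24 h to untreated thus turned from 1.19 to -0.66. Without the deepest member of each library, which at 24 h is the cell of 69524 UMIs, this ratio was -2.02 for Insl5, -0.33 for Pyy in place of 3.97 and -1.07 for Cck in place of 4.36.

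Hormone RNA also reached cells that were not members. Members held 88.0% and 95.7% of the filtered cells' Gcg UMIs in the untreated and 24 h libraries, 70.9% and 98.9% of Pyy, 76.0% and 98.1% of Insl5, and 98.0%, 99.0% and 96.8% of Tph1 in the 3 libraries. The members' share was lower for Tac1, at 51.6%, 34.0% and 30%, and for secretin (Sct), at 4.59%, 27.3% and 13.4%, with Sct UMIs in 114, 137 and 120 other cells. Barcodes of under 2000 UMIs, taken as background without a test for small cells among them, carried Pyy at 224, 91.4 and 1.68 CPM and Gcg at 67.7, 31.9 and 0.196 CPM. With cells thinned to 5000 UMIs, 7.82%, 1.99% and 0.103% of the other cells held a Pyy UMI, so a single Pyy UMI in an untreated cell lies within the background of the library. The highest Pyy count in an untreated cell that was not a member was 5 UMIs.

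Rarer hormones were also seen in single cells. Cholecystokinin (Cck) had 214 UMIs in members at 24 h, of which 209 lay in 1 cell, against 13 in the untreated members and 1 at 48 h. Sct was spread over more cells, with 5, 9 and 6 members positive and 20.6, 214 and 97.7 CPM, although 36 of its 75 UMIs at 24 h lay in 1 cell, without which it stood at 138 CPM. Islet amyloid polypeptide (Iapp) had 25 UMIs in 1 untreated member, but 21 in an untreated cell that was not a member, and at 48 h 30 of its 52 UMIs lay in 1 such cell and 2 in members. At 24 h members held proenkephalin (Penk) with 31 UMIs, 29 of them in 1 member. Somatostatin (Sst), Gip, Nts, Gast, Cartpt, Nmb and Npw had no UMI in any member.

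Tph1 was then set beside the L cell hormones and Neurog3 in each member. At least 10 Tph1 UMIs were found in 6, 4 and 5 members, at least 10 Gcg or Insl5 UMIs in 3, 3 and 0, and both in none. Pyy was less separate, since 1 untreated member held 24 Tph1 and 24 Pyy UMIs, another held 3 Tph1 and 21 Pyy UMIs, and 7, 1 and 1 members held at least 1 UMI of Tph1 and of Gcg, Pyy or Insl5. Of the 7 untreated members, the other 5 held at most 4 UMIs of any L cell hormone, which is no more than the 5 Pyy UMIs of an untreated cell that was not a member. The cell with 24 Tph1 and 24 Pyy UMIs was of 62590 UMIs and held 402 goblet list UMIs, or 64.2 per 10000, the highest level of the untreated members and followed by 18.3. Doublets were not called, and the part of a second cell in this barcode was not tested. Neurog3, the progenitor factor, had 13 UMIs in 5 untreated members, 108 in 7 members at 24 h and 45 in 6 members at 48 h, or 29.8, 307 and 200 CPM. Without its highest cell it stood at 14.9, 185 and 116 CPM. Of these 18 Neurog3-positive members, 15 held no Tph1 UMI. At 24 h 1 member held 19 Neurog3 and 42 Tph1 UMIs, and another 48 Neurog3 and 39 Gcg UMIs, so the sets overlapped. The plot of hormone genes by cell shows these genes side by side.

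**Figure D2:**
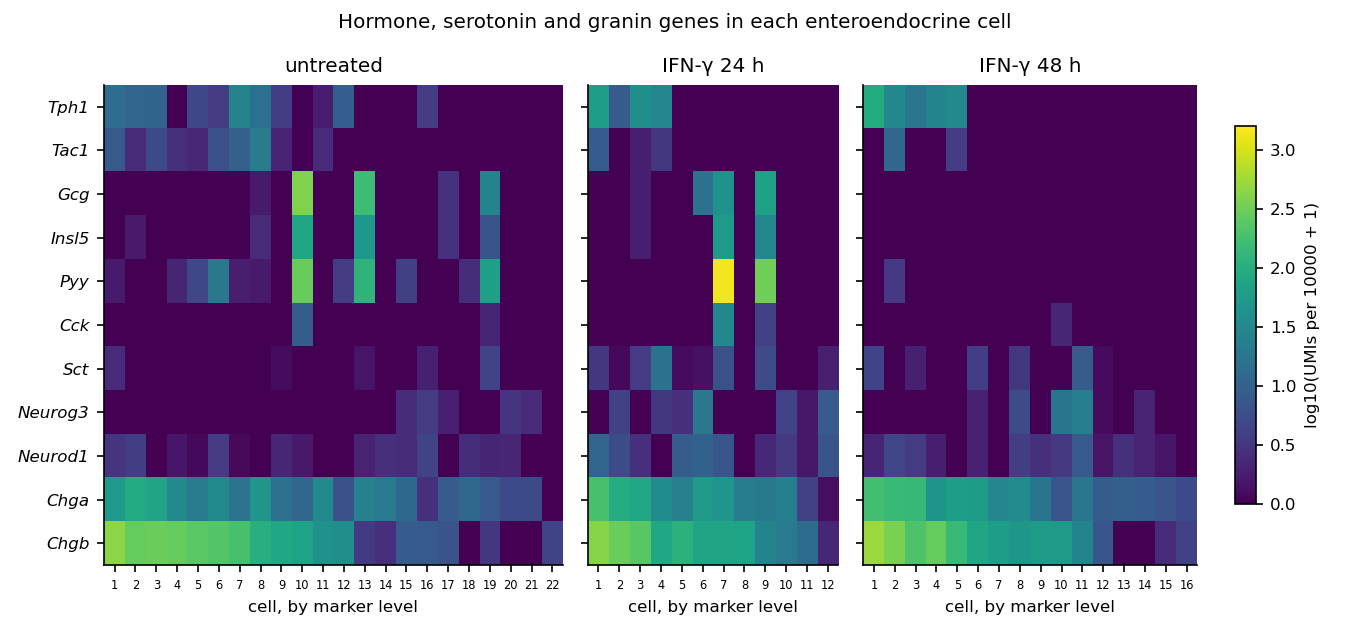
Level of serotonin, hormone, progenitor and granin genes in each enteroendocrine cell as log10(UMIs per 10000 + 1), 1 column a cell, ordered within each library from the highest to the lowest marker level. Most columns with Tac1 also hold Tph1, the brightest Gcg, Insl5 and Pyy cells coincide in columns without Tph1, and the Gcg and Insl5 rows are at 0 throughout the 48 h library.

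Transcription factors of the endocrine lineage were read across the members. Of 21 such genes, with Neurod1 left out, 15 of 19 compared were at least 2-fold higher in untreated members, 16 of 17 at 24 h and 14 of 16 at 48 h, and none was lower. Among all genes compared, 30.3%, 26.3% and 18% were higher and 14.1%, 13.7% and 8.53% lower. For the list, the median log2 ratio over other cells was 6.88, 10.30 and 6.49, beside 0.44, 0.32 and 0.21 over all genes compared. Genes at 0 in members enter these medians at an upper bound taken from 3 counts, and with such genes placed lowest the medians over all genes were 0.27, 0.08 and -0.08, while the 3 medians of the list did not move. Lmx1a, which is needed for the serotonin programme, stood at 563, 196 and 164 CPM in members and at 0.203, 0.0424 and 0.0638 CPM in other cells, and 109 of its 246 untreated UMIs lay in 1 cell, without which it stood at 352 CPM. Runx1t1, a corepressor gene of the endocrine lineage, stood at 392, 211 and 298 CPM in members, and Rfx6, a regulator of hormone genes, at 234, 99.6 and 26.6 CPM. Neurod1, which the rule used, stood at 89.3, 561 and 129 CPM, and Insm1, a repressor that acts early in the lineage, at 68.7, 208 and 17.8 CPM. Rfx3 was less particular to the members, at 515, 381 and 506 CPM against 47.3, 31.0 and 58.7 CPM.

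Ion channels make these cells electrically excitable. Of 14 voltage-gated calcium channel genes, 8 of 9 compared were higher in untreated members, 7 of 8 at 24 h with 1 lower, and 6 of 7 at 48 h. Cacna1a, the pore of the P/Q-type channel, stood at 1470 CPM (1358 to 1588), 1250 CPM (1136 to 1372) and 1377 CPM (1228 to 1539) against 9.22, 5.23 and 6.15 CPM in other cells, and was found in 21, 12 and 15 members. Its auxiliary subunit gene Cacna2d1 stood at 891, 561 and 906 CPM. The delayed-rectifier potassium channel gene Kcnb2 stood at 2141 CPM (2006 to 2283), 1882 CPM (1741 to 2031) and 2389 CPM (2191 to 2600) against 41.4, 2.39 and 14.2 CPM. Both channels were read in nearly every member, and the sign of their ratios to untreated turned with the setting, from -0.62 to 0.08 for Cacna1a and from -0.34 to 0.13 for Kcnb2 at 24 h, and from -0.59 to 0.12 and from -0.30 to 0.37 at 48 h. The sodium channel gene Scn3a was the most member-bound of the channels, at 659, 162 and 200 CPM against 0.0608, 0.0141 and 0.0425 CPM. Of 24 potassium channel genes, 11 of 16 compared were higher and 4 lower in untreated members, 10 and 3 of 15 at 24 h, and 6 and 1 of 14 at 48 h, so the list held genes on both sides. For both channel lists the shares over all genes compared were 30.3%, 26.3% and 18% higher and 14.1%, 13.7% and 8.53% lower.

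Receptor and sensory channel genes were also read. Of 22 receptor genes, 8 of 10 compared were higher and 2 lower in untreated members, 3 and 1 of 5 at 24 h, and 2 and 1 of 4 at 48 h. Of 12 sensory cation channel genes, 2 of 6 compared were higher and 1 lower in untreated members, 2 and 1 of 5 at 24 h, and 1 and 1 of 4 at 48 h. Over all genes compared, 30.3%, 26.3% and 18% were higher and 14.1%, 13.7% and 8.53% lower, and nothing is read from these counts. The short-chain fatty acid receptor gene Ffar2 stood at 57.2, 290 and 71.0 CPM in members and was found in 12, 9 and 6 of them. The olfactory-type receptor gene Olfr78 stood at 208, 25.6 and 0 CPM, and without its highest cell at 120 CPM in the untreated library. The angiotensin receptor gene Agtr1a had 47 untreated UMIs, 45 of them in 1 cell, and the mechanosensitive channel gene Piezo2 had 56, with 50 in 1 cell. The irritant channel gene Trpa1 had no UMI in members, and its relative Trpm3 stood at 227, 290 and 111 CPM, or at 108, 50.7 and 63.9 CPM without the highest cell of each library.

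Vesicle fusion genes and genes of the general secretory pathway were read next. Of 32 genes of regulated exocytosis, 22 of 27 compared were at least 2-fold higher in untreated members, 23 of 26 at 24 h and 19 of 26 at 48 h, with 0, 0 and 1 lower and medians of 3.76, 4.85 and 3.40 on the log2 scale. Ptprn2, a dense-core granule membrane protein, stood at 3061 CPM (2899 to 3230), 1295 CPM (1179 to 1420) and 2131 CPM (1945 to 2331) against 16.9, 0.919 and 2.68 CPM. Cadps, which primes granules for release, stood at 1026, 567 and 924 CPM. The SNARE gene Snap25 stood at 337, 105 and 120 CPM, and the active-zone gene Rimbp2 at 797, 450 and 333 CPM. Rab3c stood at 801, 122 and 169 CPM, and 190 of its 350 untreated UMIs lay in 1 cell, without which the untreated level was 411 CPM. Of 24 general secretory pathway genes, 0 were higher and 8 lower in untreated members, 4 and 0 at 24 h, and 0 and 0 at 48 h, with medians of -0.57, 0.60 and -0.09. For both lists the shares over all genes compared were 30.3%, 26.3% and 18% higher and 14.1%, 13.7% and 8.53% lower. Nothing is read from these counts.

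**Figure D3:**
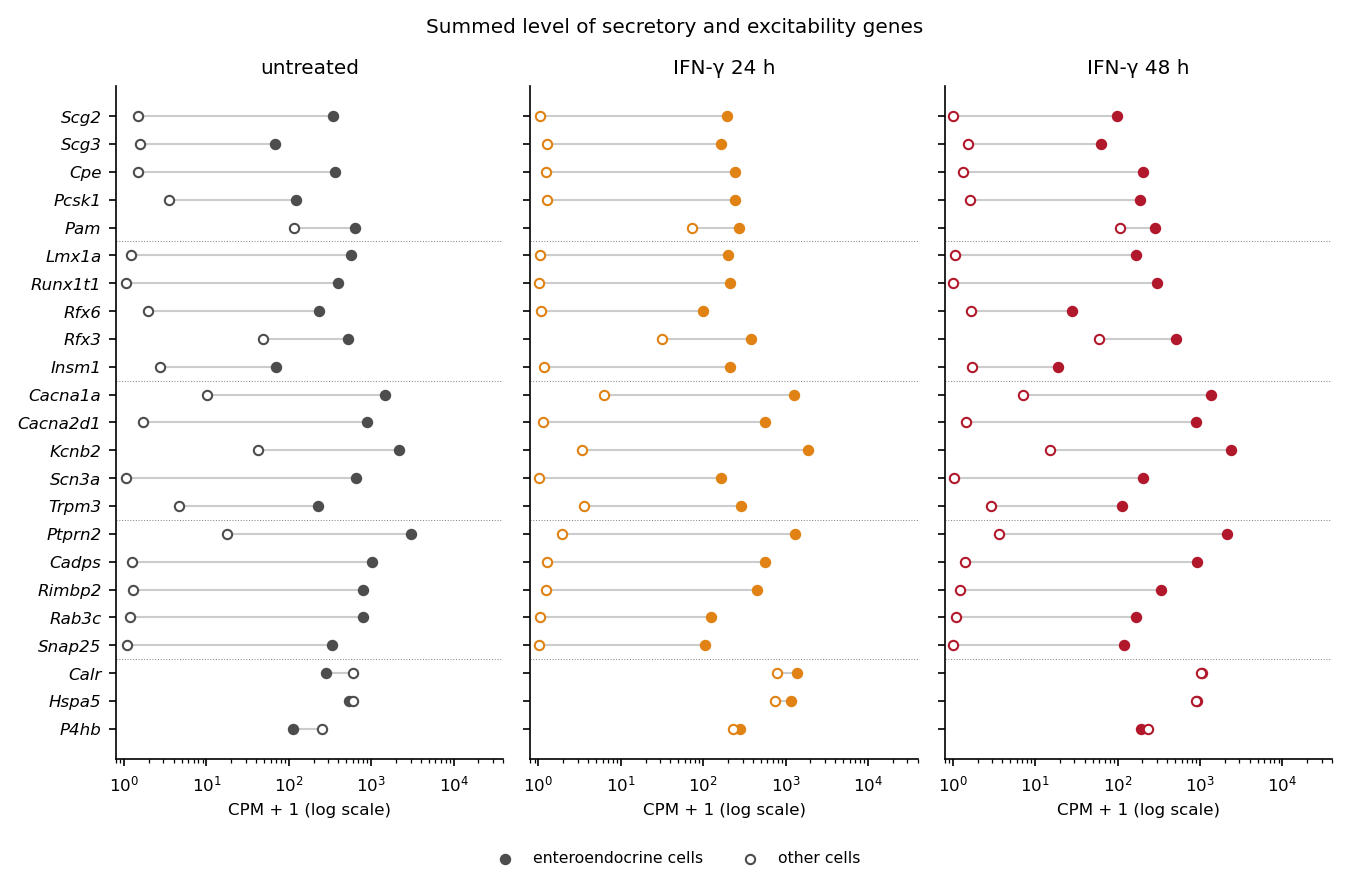
Summed level of granin, transcription factor, channel, exocytosis and general secretory genes (CPM + 1, log scale) in enteroendocrine cells (filled) and other cells (open) of each library, 1 row a gene, with dotted lines between the gene groups. The 2 points of Calr, Hspa5 and P4hb lie close together, while those of Scn3a and Cadps lie more than 2 log10 units apart in every library.

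By a fixed rule, the 10 genes with the largest ratio in the library where that ratio was smallest, among 1885 genes with at least 20 UMIs in members of each library, were Tph1, Scn3a, Runx1t1, Lmx1a, Cadps, Chgb, Rab3c, Chga, Snap25 and Rimbp2. Their smallest log2 ratios over other cells ran from 10.48 for Rimbp2 to 12.44 for Tph1. Those of Runx1t1 (12.19) and Snap25 (10.88) are lower bounds, so their place in this order is not fixed. Of these, 3 are markers of the rule, and the other genes are a channel, 2 transcription factors and 4 genes of vesicle fusion.

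IFN-γ signals through its receptor and the JAK-STAT pathway, which switches on IRF1 and, with it, genes for antigen presentation and for interferon-inducible GTPases. For treated members over untreated members, 13.4% of 9023 genes compared were at least 2-fold higher at 24 h and 29.6% lower, and at 48 h 12.8% of 8681 were higher and 23.8% lower. In the other cells, 2.7% of 13132 genes were higher and 18.3% lower at 24 h, and 4.32% of 13303 were higher and 11% lower at 48 h. Medians over all genes were -0.38 and -0.27 in members and -0.36 and -0.12 in other cells. With TMM factors, which centre most genes, the medians were -0.06 and -0.10 in members, and the share of higher among 2-fold genes was 49.1% and 46.8% in place of 31.2% and 34.9%. In other cells that share was 23.6% at 24 h in place of 12.9%. For members over other cells in the untreated library the share was 55.5% in place of 68.3%.

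Of 87 genes in 5 IFN-γ lists, 73 of 82 compared were at least 2-fold higher in members at 24 h and 2 lower, and 70 of 78 were higher and 1 lower at 48 h. The other cells had 69 of 86 higher and 1 lower at 24 h, and 74 of 87 higher and 1 lower at 48 h. The median log2 ratio was 3.97 and 4.01 in members. Because 30 and 28 of the members' ratios are lower bounds, taken against 3 counts over the untreated members, and that of Nos2 is an upper bound, these medians cannot be set against those of the other cells (3.19 and 3.15). Summed over the lists, members stood at 2255, 36912 and 29561 CPM and other cells at 2529, 16072 and 19892 CPM.

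The response was seen in every treated member. Per cell, the summed lists in untreated members ran from 13.3 to 39.8 UMIs per 10000 with a median of 20.3, at 24 h from 175 to 604 with a median of 264, and at 48 h from 165 to 653 with a median of 211. The lowest treated member thus lay above the highest untreated member at both times. The median other cell stood at 24.9, 155 and 193 per 10000, and 4 of 22, 12 of 12 and 12 of 16 members lay above it. Background barcodes of the treated libraries also carried these genes, as the values given below show, and the part of free RNA in the members' level was not tested.

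**Figure D4:**
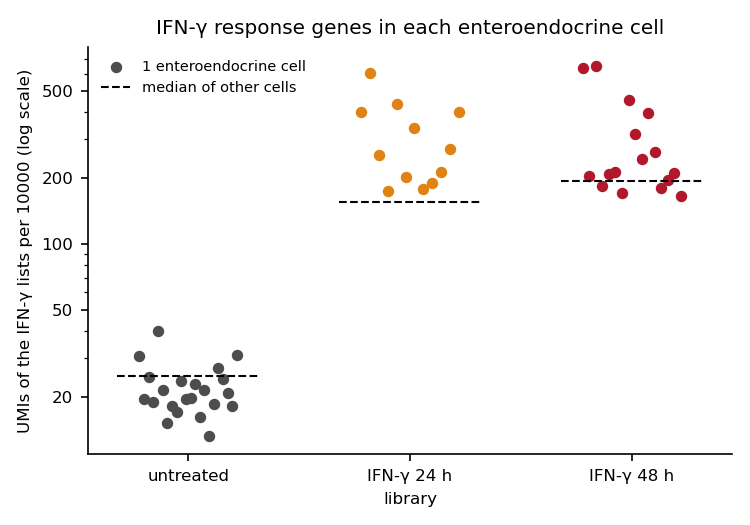
UMIs of the 5 IFN-γ lists per 10000 (log scale) in each enteroendocrine cell of the 3 libraries, with points spread sideways for visibility and a dashed line at the median of the other cells. All 28 treated cells lie above all 22 untreated cells, and all 12 cells at 24 h lie above the dashed line.

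Receptor and signalling genes come first in the pathway, and their list had the lowest medians of the 5 lists in members (1.38 and 1.05 on the log2 scale). Ifngr1, the ligand-binding receptor chain, stood at 140 CPM (107 to 179), 25.6 CPM (11.7 to 48.6) and 22.2 CPM (7.21 to 51.8) in members, and at 149, 75.4 and 82.9 CPM in other cells. Ifngr2 stood at 50.4, 28.5 and 35.5 CPM. The transcription factor gene Irf1 stood at 36.6, 433 and 391 CPM in members against 23.3, 331 and 309 CPM in other cells. Of the 16 genes of the signalling list, 8 of 15 compared were higher and 1 lower at 24 h, and 7 of 14 higher and 1 lower at 48 h.

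Antigen presentation genes were higher in treated members throughout. All 17 MHC class I genes compared at 24 h and all 16 at 48 h were at least 2-fold higher, with medians of 4.27 and 3.92. B2m, the invariant light chain of class I molecules (chromosome 2, 122147686 to 122153083), stood at 48.1 CPM (29.8 to 73.5), 2061 CPM (1914 to 2217) and 1132 CPM (998 to 1280) in members, against 72.1, 479 and 599 CPM in other cells. Its log2 ratio to untreated was 5.42 (4.80 to 6.12) in members and 2.73 (2.68 to 2.78) in other cells at 24 h. The heavy chain gene H2-K1 stood at 192, 2881 and 1936 CPM in members against 269, 669 and 1025 CPM. Summed over cells, B2m and H2-K1 were thus lower in members than in other cells before treatment and higher at 24 h and 48 h. Of the class I genes compared with other cells, 6 of 16, 17 of 17 and 15 of 17 were above them in the 3 libraries. Per cell, 4 of 22, 10 of 12 and 11 of 16 members lay above the median other cell for this list. All 8 MHC class II genes compared were also higher in treated than in untreated members at both times. Cd74, the invariant chain of class II, had no UMI in untreated members and stood at 1868 and 2616 CPM in treated ones, at least 8.09 and 8.57 higher on the log2 scale. Background barcodes held Cd74 at 905 and 1855 CPM in the treated libraries, which is below the level summed over members at both times. Per cell, the class II list had medians of 1790 and 3281 CPM in treated members, against 1847 and 3958 CPM in other cells. Above that median of other cells lay 6 members at 24 h and 5 at 48 h. The part of background in the members' class II level was not tested. Ciita, the master regulator of class II genes, stood at 0, 56.9 and 97.7 CPM.

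Interferon-inducible GTPases defend cells against intracellular pathogens, and 17 of 17 compared at 24 h and 15 of 15 at 48 h were higher in treated members. Iigp1 had no UMI in untreated members and stood at 2907 CPM (2731 to 3090) and 2203 CPM (2013 to 2405), against 1114 and 1111 CPM in other cells and 737 and 606 CPM in background barcodes. Gbp2 stood at 0, 470 and 520 CPM in members, below the 571 and 639 CPM of other cells in the treated libraries, and Igtp at 0, 604 and 484 CPM against 402 and 430 CPM. Among the chemokine and other response genes, 23 of 25 compared were higher at 24 h with 1 lower, and 24 of 25 at 48 h. The T cell chemokine gene Cxcl9 stood at 4985 CPM in members at 24 h, but 1070 of its 1751 UMIs lay in 1 of 7 positive cells, and without that cell the level was 2322 CPM against 451 CPM in other cells. At 48 h it stood at 1434 CPM in 15 of 16 members, or at 748 CPM without its highest cell. Nos2, which encodes inducible nitric oxide synthase, had no UMI in treated members, while other cells stood at 10.2, 55.2 and 60.8 CPM. The 11 Nos2 UMIs of untreated members lay in 2 cells.

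Promoters of 4 response genes are shown for the letters that interferon-activated factors are known to bind. Capitals mark the core of the ISRE bound by IRF factors (GAAA, any 2 bases, GAAA) and TTCNNNGAA, the GAS element bound by STAT factors, searched on both strands with overlaps allowed. Each line is 250 bases before the RefSeq start (GRCm38.p6, plus strand), from chr2:122147437-122147686 for B2m, chr3:142620413-142620662 for Gbp2, chr11:58199306-58199555 for Igtp and chr11:53769764-53770013 for Irf1.
B2m: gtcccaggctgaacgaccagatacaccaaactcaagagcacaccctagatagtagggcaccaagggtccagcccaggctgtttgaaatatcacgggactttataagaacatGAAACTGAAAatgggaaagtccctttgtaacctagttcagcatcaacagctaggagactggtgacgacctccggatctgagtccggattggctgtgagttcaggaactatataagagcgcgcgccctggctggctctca
Gbp2: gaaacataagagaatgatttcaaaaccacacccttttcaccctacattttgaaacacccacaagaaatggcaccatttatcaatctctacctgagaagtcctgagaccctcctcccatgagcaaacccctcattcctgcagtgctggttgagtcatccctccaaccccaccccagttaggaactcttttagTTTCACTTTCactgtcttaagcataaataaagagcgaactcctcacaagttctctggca
Igtp: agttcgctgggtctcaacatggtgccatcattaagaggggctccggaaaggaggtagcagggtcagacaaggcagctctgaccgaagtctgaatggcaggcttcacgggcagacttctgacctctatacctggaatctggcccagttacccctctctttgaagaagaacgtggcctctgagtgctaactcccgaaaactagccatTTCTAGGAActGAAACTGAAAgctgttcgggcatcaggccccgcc
Irf1: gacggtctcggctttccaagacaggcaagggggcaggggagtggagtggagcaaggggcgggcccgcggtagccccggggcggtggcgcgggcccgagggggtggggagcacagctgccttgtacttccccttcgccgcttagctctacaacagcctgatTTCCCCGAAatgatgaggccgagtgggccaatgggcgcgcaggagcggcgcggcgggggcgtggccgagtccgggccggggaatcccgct
The ISRE core lies 139 to 130 bases before the start in B2m, 59 to 50 on the minus strand in Gbp2 and 34 to 25 in Igtp. GAS letters lie 45 to 37 bases before the start in Igtp and 90 to 82 in Irf1. Of the 87 IFN-γ genes, 61 had a promoter in the table, of which 20 held the ISRE core and 15 the GAS letters, beside 2.98% and 7.02% of all promoters. Genes were again counted by any of their promoters and percentages by single promoters, so the units differ. Of the 23 exocytosis genes with a promoter, 1 held each, and of the 10 granin and processing genes 1 held the ISRE core (Pcsk1) and 2 the GAS letters (Scg2 and Scg5).

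**Figure D5:**
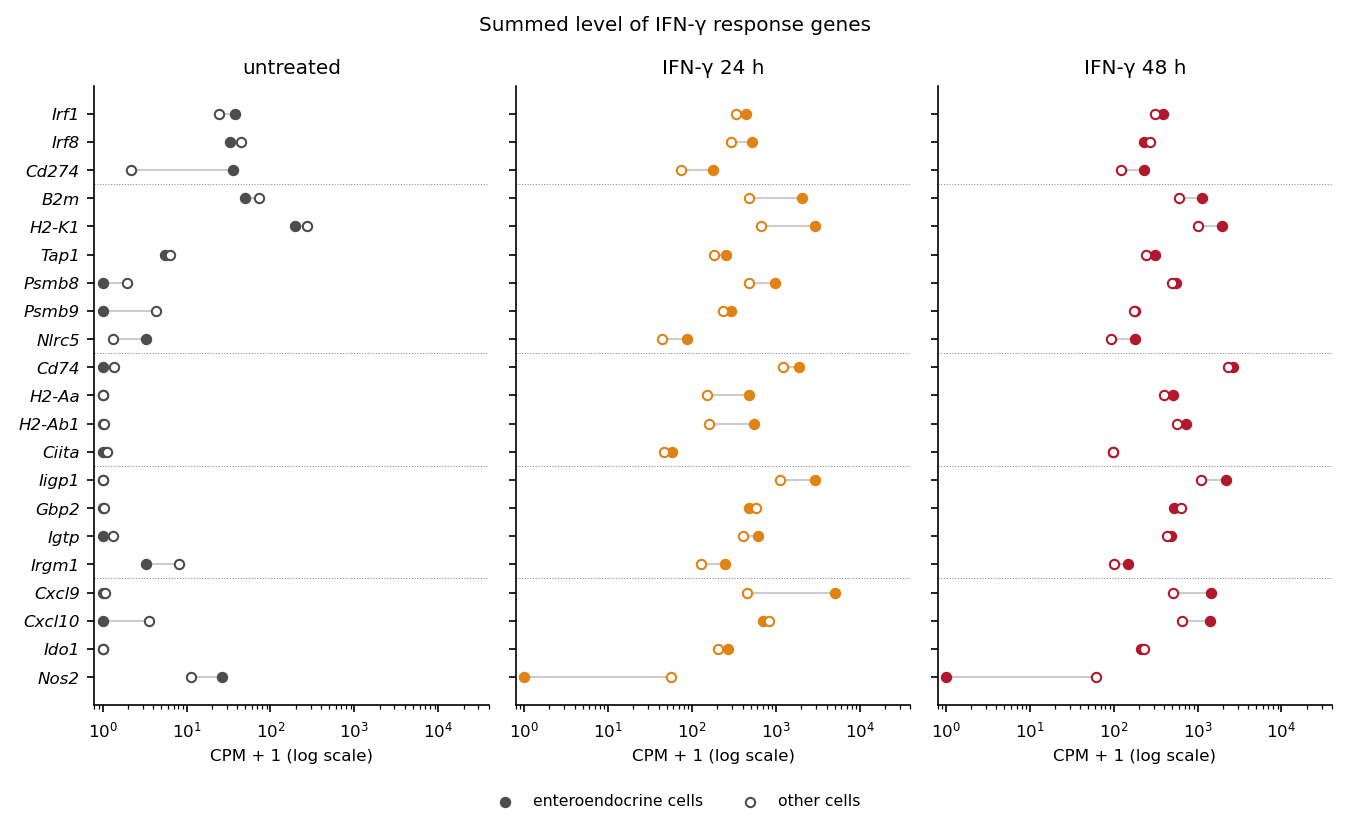
Summed level of IFN-γ response genes (CPM + 1, log scale) in enteroendocrine cells (filled) and other cells (open) of each library, grouped by dotted lines into transcription factor genes with Cd274, class I, class II, GTPase and other genes. The filled points lie right of the open ones for B2m, H2-K1, Iigp1 and Cxcl9 after treatment, and Nos2 lies at 0 CPM in treated enteroendocrine cells.

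Granin, exocytosis and calcium channel genes were also compared between treated and untreated members. Chga and Chgb helped to choose the members of each library, so their ratios are a description only. The log2 ratio of Chga to untreated was 1.54 (1.42 to 1.65) at 24 h and 0.96 (0.83 to 1.10) at 48 h, with a range over the alternative settings of 0.92 to 1.88 and 0.41 to 1.20. That of Chgb was 0.23 (0.18 to 0.29) and -0.31 (-0.38 to -0.24), and its sign turned with the setting, from -0.08 to 0.58 at 24 h and from -0.70 to 0.13 at 48 h. Exocytosis genes had medians of -0.44 and -1.11, with 2 higher and 8 lower of 25 at 24 h and 0 higher and 12 lower of 22 at 48 h. Of 8 calcium channel genes compared, 5 were lower at 24 h and 2 at 48 h, and none was higher. Without Chga and Chgb, of 9 granin and processing genes 5 were higher and 1 lower at 24 h, and of 7 at 48 h none was higher and 3 were lower. These counts stand beside the 13.4% and 12.8% of all genes that were higher in treated members and the 29.6% and 23.8% that were lower, and the lower ribosomal and higher Malat1 level of the untreated members moved with them, a part that was not tested.

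General secretory genes were compared between treated and untreated members. Of 24 such genes, 13 were at least 2-fold higher and 1 lower at 24 h, and 7 higher and 0 lower at 48 h, with the others within 2-fold, beside the 13.4% and 12.8% of all genes that were higher. The median log2 ratio was 1.15 and 0.52 in members and 0.04 and 0.01 in other cells, and over the alternative settings the members' medians ranged from 0.95 to 1.46 and from 0.40 to 0.69. Calreticulin (Calr), a chaperone of the endoplasmic reticulum that also loads class I molecules, stood at 284 CPM (236 to 339), 1381 CPM (1261 to 1509) and 1048 CPM (919 to 1191) in members, against 603, 775 and 1017 CPM in other cells. The translocon gene Sec61b stood at 213, 1216 and 577 CPM against 548, 663 and 546 CPM, and the chaperone gene Hspa5 at 538, 1176 and 928 CPM against 603, 741 and 906 CPM. Summed over cells, untreated members were thus below the other cells for these 3 genes and members at 24 h above them, while at 48 h the levels were close and the sign for Calr over other cells turned with the setting, from -0.09 to 0.07. Over the whole list members stood at 3737, 10052 and 6488 CPM against 5683, 6448 and 6658 CPM in other cells, and 4, 22 and 11 of 24 genes were above the other cells. Per cell, the list had medians of 3429, 8035 and 6193 CPM in members against 4940, 6323 and 6509 CPM in other cells. Above that median of other cells lay 4 of 22, 6 of 12 and 5 of 16 members. Ribosomal protein share, which was lowest in untreated members, moved with this list, and its part was not tested.

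Proliferation genes were mostly lower in members. The list summed to 554, 259 and 1328 CPM in members against 2509, 2787 and 2331 CPM in other cells, and all 14 genes compared were at least 2-fold lower in untreated members and at 24 h, and 5 of 14 at 48 h. Among all genes compared, 14.1%, 13.7% and 8.53% were lower. Mki67, which marks cycling cells, stood at 137, 14.2 and 173 CPM in members against 444, 358 and 362 CPM. Top2a stood at 117, 82.6 and 391 CPM against 623, 672 and 673 CPM. At 48 h 237 of the members' 299 proliferation UMIs lay in the 5 members with fewer than 20 marker UMIs per 10000, which stood at 2212 CPM, while the other 11 stood at 525 CPM. Of these 237 UMIs, 198 lay in 2 cells, without which the remaining 3 stood at 1109 CPM. In the untreated library the same split gave 1145 CPM in 8 members and 389 CPM in 14, but 85 of the 109 UMIs of the 8 lay in 2 cells, without which they stood at 473 CPM. At 24 h it gave 515 CPM in 2 members and 218 CPM in 10, but 21 of the 25 UMIs of the 2 lay in 1 cell, and the other stood at 123 CPM, below the 10.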

How the data were processed

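The authors prepared 10x 3' v3 libraries and deposited UMI counts per gene and barcode, not normalized, which the submitters' processing notes credit to Cell Ranger 6.0.1 and mm10. The annotation release is not given in the sources used here, and gene positions come from GENCODE vM21 on GRCm38. The filter asked for 5000 or more UMIs, 400 or more genes and a mitochondrial share of no more than 15%, out of 20841 untreated, 17227 24 h and 22478 48 h barcodes. No doublet caller was run and free RNA was not removed. Counts were summed over members and over other cells of each library and scaled to CPM. A ratio with 1 sum at 0 used a floor of 3 counts for that sum and is a bound. Poisson, Clopper-Pearson and conditional binomial intervals are exact. Positive cells were also counted after thinning to 5000 UMIs. Named genes are the markers, list genes with at least 10 member UMIs or at 0 where absent, the 10 leading genes, and the 5 genes each way that differed most in response. Members and lists were chosen with earlier results of these data known. Alternatives varied depth, mitochondrial share, marker threshold, thinning, scaling (TMM of edgeR 4.0.16), averaging, gene filter and the top cell. Some genes of the lists are not reported here. The code was tested on simulated data. Python 3.11.15, numpy 2.4.6, scipy 1.17.1, pandas 2.3.3, matplotlib 3.10.9 and R 4.3.3 were used.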

Additional observations from a re-analysis of the deposited data

Results flagged for a closer look

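Below the depth limit, barcodes with at least 2000 but under 5000 UMIs that met the marker rule numbered 56 of 1861 in the untreated library, 1 of 194 at 24 h and 9 of 4862 at 48 h, and no comparison above used them. Of these, 1, 0 and 0 held at least 50 marker UMIs per 10000. Background barcodes carried Chgb at 199, 76.3 and 13.6 CPM in the 3 libraries, and the part of background in these counts was not tested.

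Pcsk1 had ratios of opposite sign in members and in other cells, with log2 ratios to untreated of 1.01 and -3.20 at 24 h and of 0.62 and -2.0 at 48 h, and the difference was not tested.

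P4hb, a protein disulfide isomerase gene, also had ratios of opposite sign, with log2 values of 1.33 in members and -0.15 in other cells at 24 h and of 0.77 and -0.12 at 48 h, although in other cells the sign at 24 h turned with the setting, from -0.19 to 0.10, and the difference was not tested.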

How the results depend on the processing

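Each condition has 1 library, so no value has a replicate error. Of the ratios recomputed that were at least 2-fold, 3 changed sign, all responses of members at 24 h. Without the member with the most UMIs in each library, the log2 ratio was -0.33 for Pyy in place of 3.97, -2.02 for Insl5 in place of 1.19 and -1.07 for Cck in place of 4.36, and without the member with the most UMIs of that gene, an alternative chosen after seeing the data, -0.66 for Insl5. Smaller ratios also changed sign, among them the responses in members of Chgb, Cacna1a and Kcnb2 at both times, of Gcg, Trpm3, Reg4 and Top2a at 24 h and of Ffar2 and Neurod1 at 48 h. No paired analysis was possible because each condition has 1 library and no replicate numbers. A minimum of 2000 UMIs gave 78 untreated members in place of 22 and 25 at 48 h in place of 16, 1224 genes lower in untreated members than in other cells in place of 2026, and 2, 44 and 12 untreated cells holding most of Gcg, Pyy and Insl5 in place of 1, 2 and 2. A minimum of 10000 UMIs gave 9 members at 48 h, and 1 untreated cell holding most of Tph1 in place of 2. With at most 10% mitochondrial UMIs, 1 untreated cell each held most of Insl5 and Tph1 in place of 2. The mean over cells of CPM gave 1843 genes lower in members than in other cells at 48 h in place of 1120, and TMM factors gave 540 genes higher in other cells at 24 h in place of 354. With genes of at least 1 UMI, the exocytosis median over other cells was 5.62 at 24 h and 4.02 at 48 h in place of 4.85 and 3.40. Ranked by UMIs per 10000, 2 cells held most of Gcg at 24 h and 2 of Tph1 at both times in place of 1. Without the top cell of a hormone, 5 untreated cells held most of Pyy and 1 of Insl5 in place of 2, and 2 cells held most of Tph1 at 24 h and at 48 h in place of 1. With at least 1 UMI more genes enter the counts by construction, and for the other settings the cause was not tested. Scaling to UMIs outside ribosomal protein genes, mitochondrial genes, Malat1 and Neat1 was chosen after seeing the data. It left the 21 gene counts and list medians recomputed with it in place, while 18 of the other values moved and 291 did not, and the numbers of cells were not recomputed with it.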

Other observations

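By a fixed rule, the 5 genes each way whose ratio to untreated differed most between members and other cells at both times were taken from 5760 genes, as a description. Higher and lower here refer to that ratio in members against other cells, not to the level. Higher in members were Ceacam10 (32.1, 379 and 138 CPM in the untreated, 24 h and 48 h members, or 78.6 CPM at 48 h without its highest cell), Rbfox1 (18.3, 683 and 848 CPM, or 289 CPM at 24 h without the cell that held 143 of 240 UMIs), Ust (2.29, 85.4 and 195 CPM, or 88.6 CPM at 48 h without its highest cell), the antimicrobial protease gene Mmp7 (9.16, 330 and 284 CPM against 63.2, 57.1 and 84.8 CPM in other cells, or 215 and 187 CPM in treated members without the highest cell) and the secretory lineage gene Reg4 (318, 344 and 57.7 CPM against 118, 1.92 and 0.96 CPM). At 24 h 93 of the 121 Reg4 UMIs of members lay in 1 cell, and without the highest cell of each library Reg4 stood at 218, 91.3 and 37.3 CPM. The sign of its ratio to untreated turned with the setting at 24 h, from -1.25 to 0.43. At 48 h that log2 ratio was -2.46 in members and -6.95 in other cells, so Reg4 was lower than untreated in both.

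Among those with a lower ratio to untreated in members than in other cells were Nrg1, March1, Igtp and Cd274. Nrg1, which encodes the growth factor neuregulin 1, stood at 728, 0 and 8.88 CPM in members. Its 318 untreated UMIs lay in 8 of 22 members, 140 of them in 1 cell, without which the untreated level was 424 CPM. March1 stood at 185, 5.69 and 8.88 CPM, with 38 of 81 untreated UMIs in 1 cell, without which it stood at 110 CPM. Igtp belongs here only through the floor used for untreated members at 0. Cd274, which encodes the checkpoint ligand PD-L1, stood at 34.3, 177 and 226 CPM in members against 1.17, 72.8 and 122 CPM in other cells, so members started from a higher level.

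Vip had 49 UMIs in 1 untreated cell that was not a member.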
